A study of Homo sapiens with 83 samples.

Results

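The comparison set the neuroblastoma cell line SHEP against the neuroblastoma cell line SKNAS while N-MYC was active. Every library came from cells that overexpress N-MYC-ER, in which N-MYC is joined to the hormone-binding part of the estrogen receptor and stays inactive until 4-hydroxytamoxifen (4OHT) is added. MYC-ON cells received 4OHT and MYC-OFF cells its ethanol vehicle. All cells, in both states, had been given dexamethasone, a glucocorticoid that sets the clocks of a culture to a common phase. Circadian time (CT) is the number of hours since then. RNA was sampled every 4 h from CT24 to CT72. The libraries were chosen by line, state and time alone, as the MYC-ON libraries of CT24 to CT72, and they were 39 of the 83 in the series. SHEP gave 26 of them, in 2 series of 13 time points, and SKNAS gave 13, in 1 series. The matching 39 MYC-OFF libraries served as the background for what N-MYC activity adds. A difference between the lines is one between 2 cell lines, with 2 replicate experiments of SHEP and 1 of SKNAS among the libraries used.

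Neuroblastoma arises from the sympathetic branch of the neural crest, and its cells can take an adrenergic state, run by factors such as HAND2 and GATA3, or a mesenchymal state, with PRRX1, NOTCH and YAP1 activity and an extracellular matrix like that of a fibroblast. N-MYC binds DNA with its partner MAX at E-boxes and raises the genes of ribosome production, nucleotide synthesis and nutrient uptake. The clock factors CLOCK and BMAL1 (listed here as ARNTL) read the same E-box. Neither line is known to carry an amplified MYCN gene of its own.

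The time points of a series came from 1 experiment. The p-values below therefore measure the spread between time points and, in SHEP, between 2 series, and for SKNAS the line and its single experiment cannot be told apart. The deposited values are TPM, which are already divided by transcript length and scaled to a common total, so the read depth of each library is unknown. Levels below are TPM rescaled by 1 factor per library (median of ratios over 12923 genes). Differences are log2(TPM + 1) of SHEP minus SKNAS at matched CT, from limma, and positive values mean higher in SHEP. A gene was called at an adjusted p of at most 0.05 and a difference of at least 1 on the log2 scale.

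The SKNAS libraries were less even than those of SHEP. The median over genes of log2(TPM + 1) lay between 3.68 and 3.87 in the SHEP libraries and between 2.38 and 3.88 in those of SKNAS, where 9 of 13 were below 3.3 and CT32, CT44, CT52 and CT60 were above it. Cytosolic ribosomal protein genes took 14.6% to 20.9% of TPM in SHEP and 14.8% to 31.9% in SKNAS, highest where the median was lowest. Among the SKNAS MYC-OFF libraries 4 of 13 were below 3.3. The part of this in the line differences was not tested, so each result was also computed without the 9 libraries, with the library median as a covariate, without the libraries under 3.8, with the trend on transcript length removed, and on TPM as deposited. Only 2 SKNAS MYC-ON libraries had a median of at least 3.8, so the fit without those under it rests on 2. A call that was made in all 5 of these alternatives is said to hold below.

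**Figure D1:**
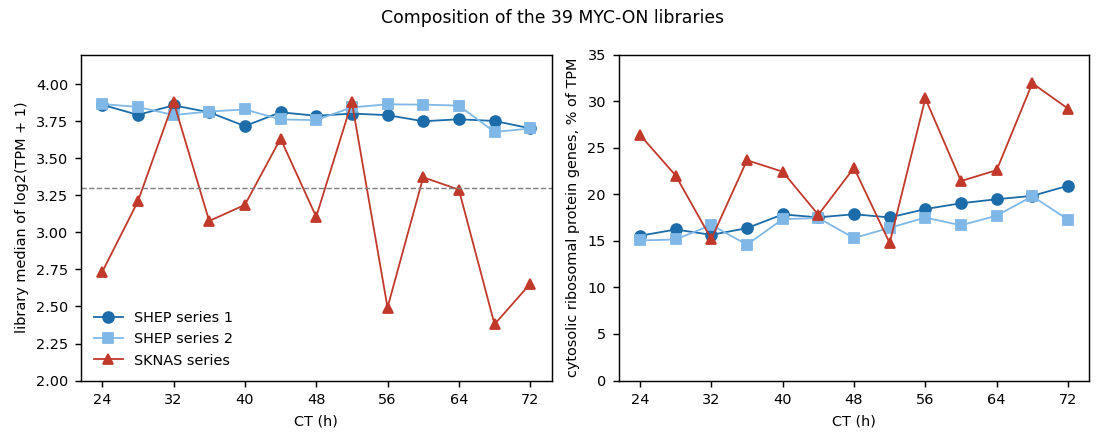
Composition of the 39 MYC-ON libraries against CT in hours. The left panel plots the library median of log2(TPM + 1), with a dashed line at 3.3, and the right panel the share of TPM taken by cytosolic ribosomal protein genes. The 26 SHEP libraries (circles and squares) stay between 3.68 and 3.87, while 9 of the 13 SKNAS libraries (triangles) lie below 3.3 and reach ribosomal protein shares of up to 31.9%.

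MYCN (ENSG00000134323, chromosome 2, 15940550 to 15947007, + strand), to which the fusion's RNA would also be assigned, was read first. It lay between 251 and 459 TPM in the SHEP libraries, with a median of 326, and between 30.4 and 858 TPM in SKNAS, with a median of 402. The SKNAS range spanned that of SHEP on both sides, and the 4 SKNAS libraries above 3.3 held 499 to 858 TPM. The line difference was 0.31 ± 0.26 (SE, limma adjusted p = 0.27), and without the 9 libraries it had the opposite sign, at -0.77. By qPCR, the paper reports stronger overexpression of N-MYC-ER in SKNAS than in SHEP. An equal N-MYC dose in the lines is therefore not shown by these values. MYC itself was low in both lines, with medians of 1.83 TPM in SHEP and 2.0 TPM in SKNAS.

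Of 15662 genes tested, 6303 (40.2%) were called, 3285 (21%) higher in SHEP and 3018 (19.3%) higher in SKNAS. The split depended on the scaling. On TPM as deposited 4771 were higher in SHEP and 1840 in SKNAS, a SHEP share of 72.2% in place of 52.1%, and the median difference of all genes was 0.46 in place of 0.06. Of the calls, 2029 of those higher in SHEP (13% of genes tested) and 1142 of those higher in SKNAS (7.29%) held. All 3285 SHEP calls were also made on TPM as deposited, against 1840 of the 3018 SKNAS calls. That alternative could thus remove calls on the SKNAS side only. Counts that held, here and in the lists below, are therefore not comparable between the directions. The 2 SHEP series set against each other gave 60 calls among 14559 genes (0.412%), and a median absolute difference of 0.12, where the lines had 0.81. The first principal component carried 77.0% of the variance and separated the lines without overlap.

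Large differences were common. By 2 or more on the log2(TPM + 1) scale, 1101 genes were higher in SHEP and 906 in SKNAS, and 61 and 94 differed by 5 or more on the log2 scale. All 26 SHEP values lay above all 13 SKNAS values for 2509 of the genes called higher in SHEP, and all below for 1757 of those called higher in SKNAS. Over all genes tested, whatever the call, such separation was found for 18.2% and 13.4%. In 1501 and 1068 of the calls the other line's mean was below 1 TPM, so these were genes that the other line hardly transcribed. Genes called higher in SKNAS had shorter transcripts, with a median longest transcript of 2355 bases against 4133 for those higher in SHEP. Among calls that hold, these were 2863 and 3485 bases.

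The rule in the processing notes, by which 10 genes per direction were named, asked for no overlap between the lines' values. Their separation, also at each time point, was thus set by the rule and is not a result. Those highest in SHEP were led by cancer-testis antigens, a group of mostly X-linked genes whose transcripts are normally confined to germ cells. GAGE12F (ENSG00000236362, chromosome X, 49551278 to 49568218, + strand) lay between 3729.8 and 5554 TPM in SHEP, with a median of 4241, and between 0.894 and 15.5 TPM in SKNAS, a difference of 9.22 ± 0.17 (limma adjusted p = 3.42e-28). GAGE2A was at 1679 to 2964 TPM in SHEP and 1.18 to 14.6 TPM in SKNAS. The lines did not come near each other for either. GAGE12J, GAGE13, GAGE1 and XAGE1A followed, with differences of 8.58, 7.46, 7.54 and 7.39. The GAGE genes are near-identical copies side by side on the X chromosome, so how reads were divided between them is uncertain, and their levels are better read as those of the family. The likeness reaches their promoters. Their transcripts, from which the reads come, were not compared here. In RefSeq (GRCh38.p14), the 300 bases around the start of GAGE12F, GAGE2A and GAGE12J were identical at 300 of 300 positions, and those of GAGE13 at 299. The window of GAGE12F (chrX:49560592-49560891, + strand, 5′ to 3′, with 250 bases before the start and 50 after) follows, with its single canonical E-box in capitals.
GAGE12F: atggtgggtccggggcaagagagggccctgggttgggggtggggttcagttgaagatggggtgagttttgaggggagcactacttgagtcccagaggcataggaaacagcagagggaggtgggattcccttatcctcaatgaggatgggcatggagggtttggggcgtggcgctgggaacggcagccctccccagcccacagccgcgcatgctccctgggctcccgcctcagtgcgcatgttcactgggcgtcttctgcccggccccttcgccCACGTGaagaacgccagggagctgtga

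The other 4 had separate roles. GDF15 (chromosome 19, 18374731 to 18389176, + strand), a secreted stress-response factor and p53 target, was at 319 to 1967 TPM in SHEP, with a median of 707, and at 0.259 to 2.21 TPM in SKNAS, a difference of 8.74 ± 0.13 (limma adjusted p = 1.44e-30). YBX3, a cold-shock domain protein that binds RNA, was at 346 to 865 TPM in SHEP and 0 to 0.793 TPM in SKNAS. MGST1, a membrane-bound glutathione transferase, was at 212 to 486 TPM in SHEP and at most 0.377 TPM in SKNAS. LCP1, an actin-bundling protein best known from blood cells, was at 317 to 389 TPM in SHEP and listed at 0 in all 13 SKNAS libraries. Like all genes named by this rule, they separated the lines at every time point.

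The 10 genes highest in SKNAS mixed secreted factors with metabolic and lipid-binding proteins. FABP5 (chromosome 8), a fatty acid carrier with several processed copies in the genome, was at 458 to 2248 TPM in SKNAS and at most 0.371 TPM in SHEP, a difference of -9.88 ± 0.12 (limma adjusted p = 1.02e-32). CRABP2, which carries retinoic acid to the nucleus, was at 498 to 1682 TPM in SKNAS and 1.47 to 3.78 TPM in SHEP. ASS1, the argininosuccinate synthase that lets a cell make arginine, was at 362 to 1166 TPM in SKNAS and 0.323 to 1.45 TPM in SHEP. By the rule, none of these ranges touched those of SHEP.

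CDKN2A (chromosome 9, 21967752 to 21995301, - strand), which encodes the cell-cycle inhibitors p16 and ARF, had 289 to 1080.3 TPM in SKNAS, with a median of 578, and at most 0.116 TPM in SHEP. The difference was -9.19 ± 0.12 (limma adjusted p = 1.89e-32). Its neighbour CDKN2B was listed at 0 in all 26 SHEP libraries and lay between 2.36 and 5.11 TPM in SKNAS. MTAP, the gene on the other side of CDKN2A, differed by 0.48 and was not called. These are transcript levels, and the copy number of the locus was not measured here.

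Among secreted factors, VIP, a neuropeptide of sympathetic and enteric neurons, was at 299.98 to 1224 TPM in SKNAS and at most 0.387 TPM in SHEP. NPW, a neuropeptide precursor, was at 195 to 3836 TPM in SKNAS with a median of 773, and at most 2.61 TPM in SHEP. IGFBP2 (319 to 2601 TPM against at most 2.5 TPM) binds insulin-like growth factors, and HGF (226 to 741 TPM against at most 1.11 TPM) is the ligand of the receptor MET. S100A4, a calcium-binding protein of motile cells, was at 603 to 6621 TPM against 2.46 to 16.6 TPM. The cancer-testis antigen CTAG1A (NY-ESO-1), whose near-identical copy CTAG1B makes the split of reads uncertain, was at 221 to 962 TPM against at most 3.54 TPM. For all 20 genes the call held. The rule of no overlap gave the difference the same sign at each of the 13 time points. VIP and HGF varied by less than S100A4 and NPW, whose SKNAS levels in the 4 libraries above 3.3 were confined to 603 to 1479 TPM and 195 to 603 TPM.

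**Figure D2:**
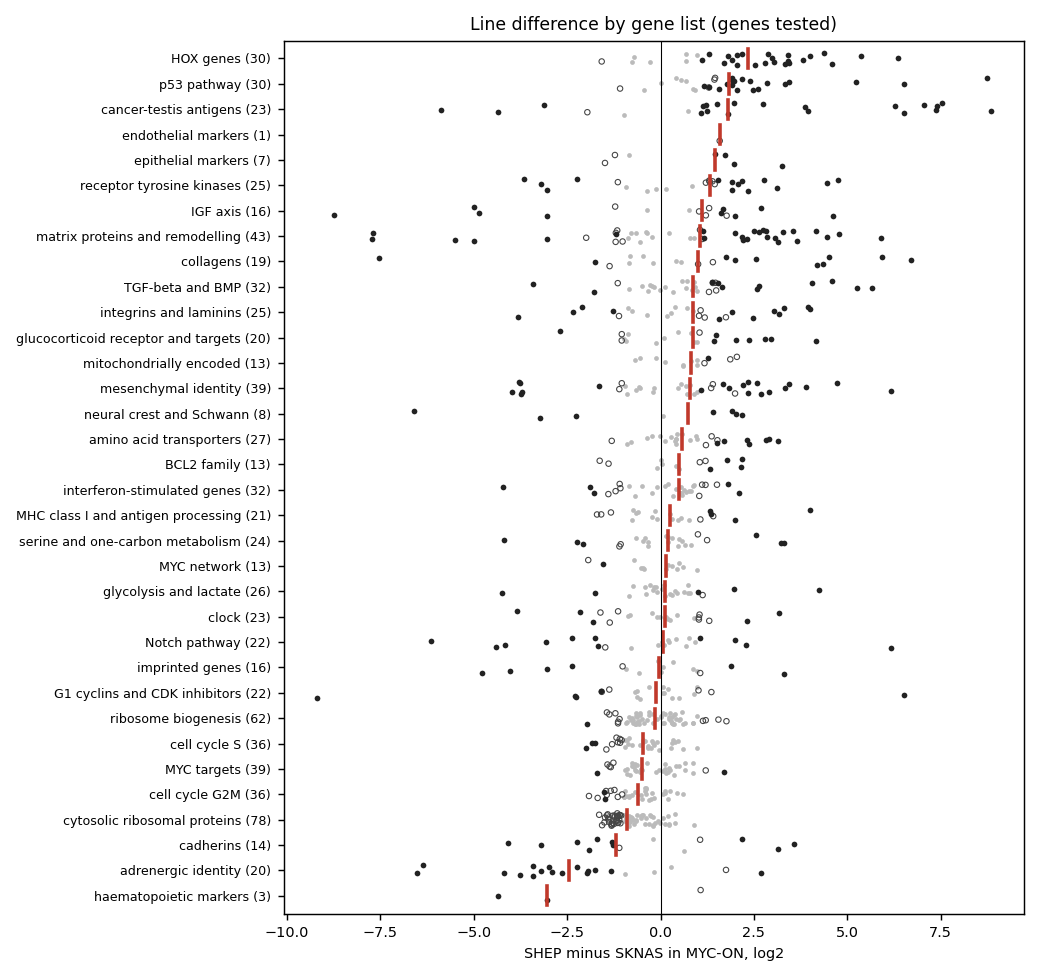
Line difference of the genes tested in each of 34 lists, as log2 of SHEP minus SKNAS in MYC-ON. Filled points are calls that hold in all 5 alternatives, open points other calls, grey points genes not called, and the red bar the list's median; numbers in brackets are genes tested. HOX genes, the p53 pathway and cancer-testis antigens lie furthest to the right among lists of at least 20 genes and the adrenergic genes furthest to the left, while the calls among cytosolic ribosomal protein genes are all open points.

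Adrenergic identity genes lay on the SKNAS side. Of 37 listed, 20 were tested, 15 were called higher in SKNAS, all 15 held, and 2 were higher in SHEP, with a median of -2.44 beside 0.06 for all genes. PHOX2A (chromosome 11, 72239077 to 72245664, - strand), a homeobox factor of noradrenergic neurons, was at 32 to 203 TPM in SKNAS and listed at 0 in every SHEP library. GATA2 was at 237 to 569 TPM in SKNAS and 29.4 to 46.4 TPM in SHEP, a difference of -3.42 ± 0.07 (limma adjusted p = 7.39e-27). SCG2, a granule protein of neuroendocrine cells, had the widest gap of the list, with 154 to 343 TPM against 0.981 to 2.69 TPM.

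HAND1, ISL1, TBX2, HAND2, INSM2, KLF13, EYA1 and SOX11 encode transcription factors of the same lineage and differed by -4.20, -3.42, -2.99, -1.94, -3.77, -2.65, -2.24 and -1.33. ELAVL2, a neuronal RNA-binding protein, differed by -1.97, DDC, a decarboxylase of catecholamine synthesis, by -2.89, and the receptor RET by -3.20. Not called were SLC18A2, GATA3 and GAP43, at -0.94, -0.18 and 0.29. KLF7 (1.75) and SATB1 (2.70) were higher in SHEP, of which the SATB1 call held. The SKNAS pattern was not a complete adrenergic one. The noradrenaline enzymes TH and DBH did not reach a mean of 1 TPM in either line and were not tested.

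Mesenchymal identity genes were called in both directions. Of 39 tested, 17 were higher in SHEP (14 held) and 8 in SKNAS (6 held), with a median of 0.78. The SKNAS count was near the 19.3% of all genes, and the SHEP count was above the 21%. NOTCH2, a receptor that marks the mesenchymal state, was at 64.8 to 126 TPM in SHEP and 0.00607 to 1.00 TPM in SKNAS. RUNX2, a bone and cartilage factor, followed at 26.4 to 66.1 TPM against 0.292 to 1.22 TPM. GLIS3, FN1, TGFBI, SIX4, FOSL2, SOX9, NT5E, FOSL1, YAP1, CD44, RUNX1, SMAD3, THY1 and LGALS1 were higher in SHEP by 3.88, 3.45, 3.34, 2.91, 2.68, 2.59, 2.33, 2.33, 2.00, 1.83, 1.67, 1.40, 1.36 and 1.08. The SKNAS side held other factors of the same list. ID3 (-3.96), PRRX2 (-3.80), PRRX1 (-3.77), AEBP1 (-3.72), ID1 (-3.71), SNAI1 (-1.65), CDH11 (-1.10) and TBX18 (-1.04) were higher there. PRRX1, a homeobox factor that can drive the mesenchymal state, was at 38.8 to 116 TPM in SKNAS and 1.28 to 7.17 TPM in SHEP. TWIST1, CREG1, IFI16, TWIST2, ANXA1, CDH2 and ZEB2, between -0.94 and -0.17, and ENG, S100A6, SNAI2, VIM, ZEB1, MAFF and WWTR1, between 0.48 and 0.98, were not called. VIM, the intermediate filament protein vimentin, was among the most abundant transcripts of either line, at medians of 3040 (3039.5) and 1904 TPM.

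HOX genes, which set position along the body axis, were the list of at least 20 genes with the highest median, 2.35. Of 30 tested, 23 were higher in SHEP, all 23 held, and 1 was higher in SKNAS. HOXB9 (chromosome 17, 48621156 to 48626358, - strand) was at 72.4 to 94.5 TPM in SHEP and at most 0.0414 TPM in SKNAS, a difference of 6.36 ± 0.04 (limma adjusted p = 7.68e-41). HOXA3 was at 24.1 to 60.7 TPM in SHEP and listed at 0 in all SKNAS libraries. The HOXB cluster stood out in full, with HOXB2, HOXB3, HOXB4, HOXB5, HOXB6, HOXB7, HOXB8, HOXB9 and HOXB13 at 4.38, 3.82, 4.58, 1.69, 3.42, 3.33, 3.45, 6.36 and 3.04. From the HOXA cluster HOXA2, HOXA5, HOXA6, HOXA7 and HOXA11 were higher in SHEP by 2.97, 3.41, 1.80, 2.88 and 2.04. From HOXC these were HOXC8, HOXC9, HOXC10, HOXC11 and HOXC13, at 2.18, 1.10, 4.00, 1.31 and 2.79, with HOXC4, HOXC5 and HOXC6 not called at 0.69, 0.97 and 0.67. HOXD was the cluster with members on the SKNAS side. HOXD8 was called there at -1.57, HOXD9, HOXD4 and HOXD3 were not called at -0.75, -0.71 and -0.29, and HOXD10 and HOXD11 were higher in SHEP by 1.90 and 2.05.

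The cancer-testis list repeated in part what the leading genes showed, since GAGE1, GAGE2A and XAGE1A belong to it. Of 23 tested, 17 were higher in SHEP and 4 in SKNAS, and 17 and 3 held. MAGEA10 (100.2 to 185 TPM against at most 0.181 TPM), PAGE2 (154 to 259.8 TPM against at most 1.45 TPM) and MAGEB2 (101 to 157 TPM against 0.146 to 0.868 TPM) were high in every SHEP library. In SKNAS the members CTAG1B, MAGEA11 and MAGEC2 were high instead. MAGEA11 was at 20.7 to 40.7 TPM there and 0.159 to 0.751 TPM in SHEP. The SHEP and SKNAS members were different genes of the same families.

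Targets of p53, the tumour suppressor that halts the cell cycle or starts apoptosis after damage, lay on the SHEP side. Of 30 tested, 22 were higher in SHEP (19 held) and 1, TRIAP1 (-1.08), in SKNAS, with a median of 1.84. CDKN1A (chromosome 6, 36676460 to 36687337, + strand), the cell-cycle inhibitor p21, was at 501 to 928 TPM in SHEP with a median of 608, and at 3.46 to 7.64 TPM in SKNAS. The difference was 6.52 ± 0.09 (limma adjusted p = 4.88e-31), and it was 6.44 without the 9 libraries. PHLDA3, an inhibitor of AKT, was at 54.2 to 109 TPM against 0.685 to 2.64 TPM, and the receptor EDA2R at 6.77 to 13.1 TPM against 0 in all SKNAS libraries. BAX and TP53I3, which are p53 targets as well, differed by 0.00 and 0.41 and were not called.

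The matrix that each line transcribed was different in kind. Of 19 collagens 10 were higher in SHEP and 3 in SKNAS (8 and 2 held). COL12A1 was at 62.0 to 180.0 TPM in SHEP and at most 0.062 TPM in SKNAS, and COL1A1, the main chain of fibrillar type I collagen, was at 327 to 1138 TPM against 2.05 to 21.2 TPM. COL3A1, the type III chain that usually accompanies it, was reversed, with 65.8 to 454 TPM in SKNAS and at most 0.288 TPM in SHEP, a difference of -7.54 ± 0.16 (limma adjusted p = 3.63e-27). Of 43 matrix and remodelling genes 22 were higher in SHEP and 11 in SKNAS (20 and 6 held). The SHEP side was led by TIMP3 (5.90), an inhibitor of matrix proteases, and PLAU (4.78), the urokinase. The SKNAS side was led by the small leucine-rich proteoglycans BGN and LUM. BGN was at 177 to 323 TPM in SKNAS and at most 0.428 TPM in SHEP, and LUM at 674 to 1321 TPM against 1.75 to 5.34 TPM. DCN, of the same protein family, differed by -5.50.

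Of 25 integrins and laminins 12 were higher in SHEP and 5 in SKNAS (8 and 4 held). LAMA4 and ITGA5 led in SHEP, at 4.01 and 3.96, and LAMA5 and ITGA11 in SKNAS, at -3.83 and -2.34. ITGA5, the fibronectin receptor chain, was at 100.2 to 342 TPM against 6.93 to 19.2 TPM, in the same line as its ligand FN1 (30.4 to 87.0 TPM against 3.42 to 5.89 TPM). Cadherins leaned the other way, with 4 of 14 higher in SHEP and 8 in SKNAS (3 and 7 held). FAT1 and CDH13 led in SHEP, at 3.56 and 3.15, and PCDH10 and CDH24 in SKNAS, at -4.07 and -3.20.

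Receptor tyrosine kinases, which pass growth factor signals across the membrane, were mostly higher in SHEP, 15 of 25 against 5 (10 and 4 held). EPHB2 was at 25.9 to 45.5 TPM in SHEP and 0.0226 to 0.606 TPM in SKNAS, and AXL at 50.2 to 111 TPM against 1.24 to 3.35 TPM. FLT1 (-3.66) and RET (-3.20) led in SKNAS. For MET the receptor and its ligand lay in different lines. MET was at 101 to 145 TPM in SHEP and 9.60 to 22.6 TPM in SKNAS, whereas HGF, given above, was at 226 TPM or more in SKNAS alone.

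Of 16 genes of the IGF axis 9 were higher in SHEP and 5 in SKNAS, with a median of 1.12 that was 0.37 without the 9 libraries. The ligand IGF2 was at 4.34 to 13.7 TPM in SKNAS and at most 0.0795 TPM in SHEP, and the binding proteins IGFBP2, IGFBP4, IGFBP7 and IGFBP3 were higher in SKNAS, at -8.75, -4.99, -4.85 and -1.21. Higher in SHEP were the receptors IGF2R, INSR and IGF1R (2.68, 1.30 and 1.21), the adaptor IRS2 (1.68), the RNA-binding proteins IGF2BP1, IGF2BP3 and IGF2BP2 (4.61, 1.77 and 1.03), the protease PAPPA2 (1.99) and IGFBP6 (1.62). PAPPA (0.76) and IRS1 (-0.36) were not called. Of these 9 and 5 calls, 5 and 4 held. IGF2BP3 was among those that did not. It ranged from 2.87 to 93.0 TPM in SKNAS, and its difference was -0.01 without the 9 libraries.

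Notch pathway genes were called in both directions, 4 of 22 higher in SHEP and 8 in SKNAS. Receptors were called on the SHEP side, ligands on the SKNAS side, and targets on both. NOTCH2 (6.16), HES4 (2.28), NOTCH1 (1.98) and HEY2 (1.06) were higher in SHEP, while JAG2 (-6.14), HEY1 (-4.41), HES1 (-4.17), LFNG (-3.08), HES6 (-2.36), HEYL (-1.76), NRARP (-1.67) and DLL3 (-1.48) were higher in SKNAS. HES1, a repressor that Notch signalling induces, was at 59.4 to 113 TPM in SKNAS and 2.13 to 7.49 TPM in SHEP. All but DLL3 held. The median of the 22 genes was 0.07, and it took the opposite sign without the 9 libraries (-0.38).

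Because N-MYC was active in both lines, its own network and targets were compared as well. Of 13 MYC network genes none was higher in SHEP and MXD3 (-1.93) and MXD4 (-1.55), antagonists that compete for MAX, were higher in SKNAS, the latter with a call that held. The other 11, MXD1, MLX, ZBTB17, MXI1, MYC, MLXIP, MYCN, MAX, MNT, MLXIPL and MGA, lay between -0.71 and 0.97 and were not called by limma. Of 39 MYC targets 2 were higher in SHEP and 5 in SKNAS, against 21% and 19.3% of all genes. SLC7A5, the large neutral amino acid transporter, was at 130.1 to 269 TPM in SHEP and 45.6 to 88.7 TPM in SKNAS, and POLR1B, an RNA polymerase I subunit, differed by 1.21. PLD6 (-1.70) and the fibrillarin gene FBL (-1.42) led in SKNAS, and for FBL the difference was -0.58 without the 9 libraries. The median of the targets was -0.50, and 0.11 without those libraries.

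Calls among cytosolic ribosomal protein genes changed with the libraries and settings used. Of 78 genes 30 were called higher in SKNAS and none in SHEP, but 0 of the 30 held. The median of -0.89 was -0.03 without the 9 libraries, where 6 genes were called higher in SHEP, and 0.18 with the library median as covariate. The share of these genes was highest where the library median was lowest, so fits that use that median cannot tell the 2 apart. With the length trend removed 19 genes were called higher in SKNAS. The cause was not tested. RPLP0, a protein of the ribosomal stalk, differed by -1.40, and by -0.59 without the 9 libraries. Of 62 ribosome biogenesis genes 4 were higher in SHEP and 7 in SKNAS, and 0 and 1 held.

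Clock genes were called in both directions, 6 each of 23 tested, of which 2 and 3 held. The called shares were near the 21% and 19.3% of all genes, and calls that held made up 13% and 7.29% of all genes. ARNTL2 (3.18) and BHLHE40 (2.31) were higher in SHEP with calls that held, and PER3, NFIL3, CLOCK and CSNK1D (1.30, 1.04, 1.03 and 1.03) with calls that did not. NPAS2 (-3.83) and RORB (-2.15) were higher in SKNAS with calls that held, and DBP, RORA and HLF (-1.61, -1.36 and -1.14) with calls that did not. NPAS2, which can stand in for CLOCK as the partner of BMAL1, was at 12.8 to 20.9 TPM in SKNAS and 0.0186 to 0.579 TPM in SHEP. ARNTL2, a paralogue of ARNTL, was at 19.8 to 30.5 TPM in SHEP and 1.03 to 4.77 TPM in SKNAS. Each line thus had a high level of 1 paralogue, on opposite arms of the dimer. The central ARNTL was close in both, at medians of 2.54 and 1.99 TPM and a difference of 0.27. CSNK1E, PER2, CRY1, CRY2, NR1D2, BHLHE41, TEF, NR1D1 and PER1 were not called either, at differences between -0.88 and 0.43.

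The comparison of MYC-OFF libraries gave 5587 calls among 15996 genes (34.9%), 2994 (18.7%) higher in SHEP and 2593 (16.2%) higher in SKNAS. Called in both states were 2482 genes higher in SHEP, which is 75.6% of the MYC-ON and 82.9% of the MYC-OFF calls, and 2007 higher in SKNAS (66.5% and 77.4%). Not a single gene was called higher in SHEP in 1 state and higher in SKNAS in the other. The difference between the states was tested directly as an interaction over all 78 libraries. It is the line difference in MYC-ON minus that in MYC-OFF, so a positive value means that SHEP stood higher against SKNAS once N-MYC was active. Of 16558 genes 1192 (7.2%) were called, 631 (3.81%) larger and 561 (3.39%) smaller. On TPM as deposited the split was 1025 and 362. Of the 631 and 561, 394 and 259 were called on TPM as deposited and also with the covariate, without libraries below 3.3 and with the length trend removed. Of 803 genes higher in SHEP in MYC-ON alone, 102 had the difference between states called, and of 1011 higher in SKNAS in MYC-ON alone, 184 had it. For the rest, a call in 1 state does not show that the states differed.

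**Figure D3:**
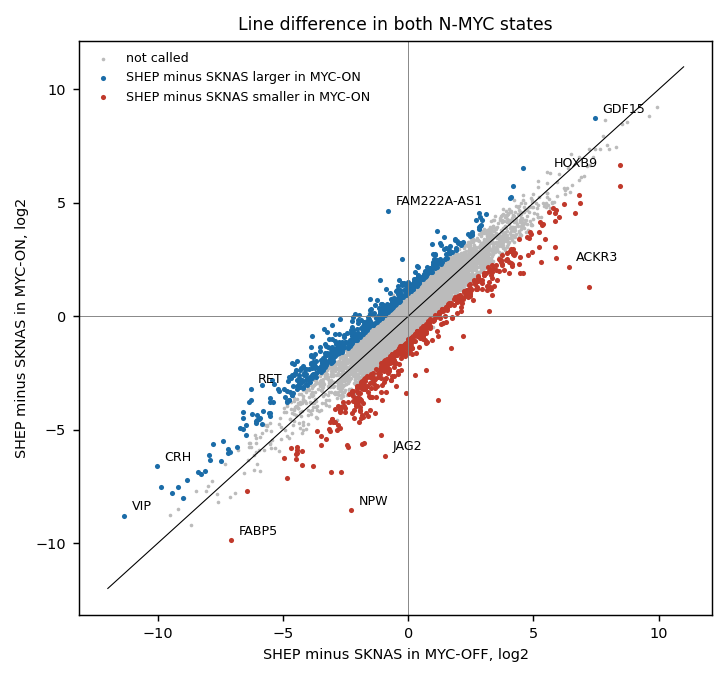
Line difference (log2 of SHEP minus SKNAS) in MYC-OFF on the horizontal axis and in MYC-ON on the vertical axis, with 1 point per gene and the diagonal where both are equal. Blue and red points are the 631 and 561 genes whose difference was larger or smaller in MYC-ON by the interaction test. Most points follow the diagonal, FAM222A-AS1 lies far above it, and NPW and JAG2 lie far below it.

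For most of these genes SKNAS changed more than SHEP between the states. Of the 631 genes whose difference was larger in MYC-ON, SHEP changed more than SKNAS between the states in 136, and the SKNAS level was lower in MYC-ON by 1 or more on the log2 scale in 410. Of the 561 smaller ones, SHEP changed more in 218, and SKNAS was higher in MYC-ON by 1 or more in 287. These shares describe the fitted changes over all libraries and were not tested. In SKNAS 9 of 13 MYC-ON and 4 of 13 MYC-OFF libraries had a median below 3.3, against 0 in SHEP MYC-ON. The part of this in the SKNAS changes was not tested either. Without the SKNAS libraries below 3.3, 615 interactions were called larger and 381 smaller.

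FAM222A-AS1 (ENSG00000255650, chromosome 12, 109734166 to 109773508, - strand), an antisense transcript at the FAM222A gene, had the largest positive interaction, 5.44 ± 0.11 (limma adjusted p = 4.34e-42). It lay between 16.7 and 32.3 TPM in the 26 SHEP MYC-ON libraries and at most 0.237 TPM in those of SKNAS. With N-MYC inactive it was at 0.0651 ± 0.102 TPM (SD, n = 26 libraries) in SHEP and 0.917 ± 0.547 TPM (SD, n = 13) in SKNAS, and MYC-OFF values below are given in the same way. This was a gene of SHEP MYC-ON alone. The library kit is not stated to keep strand, so reads from FAM222A on the other strand cannot be told apart from it.

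CRH, RET, GAS7 and TRIM54 followed, and in all 4 the SKNAS level was lower in MYC-ON. CRH, which encodes corticotropin-releasing hormone, was at 38.7 to 217 TPM in SKNAS MYC-ON and 1149.7 ± 502 TPM in SKNAS MYC-OFF, and at most 0.0517 TPM in SHEP MYC-ON, with an interaction of 3.42 ± 0.18. RET, the receptor of GDNF-family ligands, was at 5.27 to 12.4 TPM in SKNAS MYC-ON against 81.1 ± 22.9 TPM in MYC-OFF, and listed at 0 in all SHEP MYC-ON libraries (3.10 ± 0.08). GAS7 was at 2.92 to 10.3 TPM in SKNAS MYC-ON against 15.2 ± 5.85 TPM, while in SHEP it went the other way, to 1.25 to 3.44 TPM from 0.0604 ± 0.0823 TPM (2.98 ± 0.14). TRIM54, a muscle ubiquitin ligase, was at 1.69 to 5.46 TPM against 14.9 ± 5.53 TPM in SKNAS (2.82 ± 0.14). So the line gap of RET and CRH was narrower in MYC-ON. That of GAS7 was -0.87 and not called, but it was -1.28 without the 9 libraries and -1.39 with the library median as covariate. That of TRIM54 was -0.54, and -0.17 without the 9 libraries.

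On the other side NPW, JAG2 and AMN were high in SKNAS MYC-ON. NPW was at 195 to 3836 TPM there and 11.5 ± 11.5 TPM in SKNAS MYC-OFF, with at most 2.61 TPM in SHEP (-6.29 ± 0.31). JAG2 (chromosome 14, 105140982 to 105168824, - strand), a Notch ligand, was at 50.4 to 146 TPM in SKNAS MYC-ON and 1.22 ± 0.544 TPM in MYC-OFF, and at most 0.508 TPM in SHEP MYC-ON (-5.22 ± 0.10, limma adjusted p = 7.06e-44). AMN, a membrane partner of cubilin in vitamin B12 uptake, was at 16.8 to 114 TPM against 0.520 ± 0.472 TPM in SKNAS (-4.78 ± 0.18). For these 3 genes the SKNAS MYC-ON values stood above every SHEP value. GAGE2E (-5.89 ± 1.26, limma adjusted p = 9.76e-05) and RNA5-8SN2, a copy of the 5.8S ribosomal RNA (-4.89 ± 1.42, limma adjusted p = 0.00342), were the remaining 2 by the rule. Within SHEP MYC-ON they ranged from 0 to 918 TPM and from 0 to 311 TPM, both have near-identical copies in the genome, and neither was called without the libraries below 3.3, where the interactions were -6.20 and -5.63 (limma adjusted p = 0.0621 and 0.104).

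The promoters of 4 of these genes are shown since they were among those with the widest change in line difference between the states. Each is the RefSeq (GRCh38.p14) window from 250 bases before to 50 bases after the start, 5′ to 3′ on the gene's strand, with every canonical E-box, CACGTG, in capitals; this motif is its own reverse complement, so 1 search covers both strands. FAM222A-AS1 (chr12:109773438-109773737, - strand) held 2, at positions 24 and 255 of the window, AMN (chr14:102922413-102922712, + strand) held 1 at position 222, and JAG2 (chr14:105168727-105169026, - strand) and NPW (chr16:2019535-2019834, + strand) held none.
FAM222A-AS1: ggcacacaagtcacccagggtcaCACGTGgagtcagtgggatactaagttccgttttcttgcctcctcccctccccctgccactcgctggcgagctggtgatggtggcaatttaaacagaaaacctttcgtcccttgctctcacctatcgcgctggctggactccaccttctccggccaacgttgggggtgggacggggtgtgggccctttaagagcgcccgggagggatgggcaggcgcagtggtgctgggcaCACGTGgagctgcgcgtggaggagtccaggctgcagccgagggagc
AMN: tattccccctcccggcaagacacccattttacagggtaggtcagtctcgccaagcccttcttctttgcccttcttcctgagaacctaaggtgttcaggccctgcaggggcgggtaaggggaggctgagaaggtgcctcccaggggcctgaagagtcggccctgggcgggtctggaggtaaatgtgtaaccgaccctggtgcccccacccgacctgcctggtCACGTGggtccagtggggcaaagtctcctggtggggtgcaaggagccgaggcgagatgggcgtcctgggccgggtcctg
JAG2: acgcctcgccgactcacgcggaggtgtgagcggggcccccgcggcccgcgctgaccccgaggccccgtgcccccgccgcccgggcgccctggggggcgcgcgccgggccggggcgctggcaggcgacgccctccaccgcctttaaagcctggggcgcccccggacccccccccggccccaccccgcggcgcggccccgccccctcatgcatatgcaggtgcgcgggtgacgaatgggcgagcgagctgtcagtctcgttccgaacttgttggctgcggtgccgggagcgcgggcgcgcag
NPW: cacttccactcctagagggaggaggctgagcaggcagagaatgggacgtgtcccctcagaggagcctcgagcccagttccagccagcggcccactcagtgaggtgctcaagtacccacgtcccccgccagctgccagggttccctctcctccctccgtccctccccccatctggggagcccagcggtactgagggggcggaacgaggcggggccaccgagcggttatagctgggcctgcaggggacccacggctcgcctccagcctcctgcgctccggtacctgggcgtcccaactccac

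A canonical E-box was found in 7.26% of all 35116 promoter windows and in 10.2% of the 10806 windows that matched a tested gene by symbol. Among genes higher in SHEP in MYC-ON the share was 8.39% (of 2204 windows), and among those higher in SKNAS 11.1% (of 1985). Among genes with a larger interaction it was 7.43% (of 444), and with a smaller one 12.1% (of 338). A match of 6 letters describes the window and is not a bound site.

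The interaction was tested for genes that averaged 1 TPM or more in any of the 4 groups of line and state. A gene kept for its MYC-OFF level alone was lower in MYC-ON in that line by this choice, so the filter bears on its direction. By list, the adrenergic genes had the most interaction calls in a single direction, with 24 tested here against 20 in MYC-ON. Of 24 tested for the interaction 10 had a larger value and none a smaller one, against 3.81% and 3.39% of all genes. Among them RET (3.10), INSM2 (2.58), HAND1 (2.42), GATA3 (1.71), PHOX2A (1.54), HAND2 (1.42), TBX2 (1.35), EYA1 (1.09) and DDC (1.04) each stood closer to SHEP in MYC-ON. PHOX2A was at 249 ± 82.3 TPM in SKNAS MYC-OFF against a median of 82.1 TPM in MYC-ON, and GATA3 at 60.8 ± 8.29 TPM against 19.2 TPM, which was near the SHEP median of 16.6 TPM. GATA2 ran the other way in level, from 101 ± 24.8 TPM in SKNAS MYC-OFF to a median of 442 TPM and from 14.8 ± 1.78 TPM to 36.3 TPM in SHEP, with an interaction of -0.76 that was below the threshold of 1.

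In the p53 list 5 of 30 genes tested had a larger interaction and none a smaller one, against 3.81% and 3.39% of all genes. CDKN1A (1.94 ± 0.12, limma adjusted p = 7.76e-21) was at 26.3 ± 7.67 TPM in SKNAS MYC-OFF against a median of 6.10 TPM in MYC-ON, while SHEP had 629.7 ± 63.4 TPM and a median of 608 TPM. BTG2, TP53INP1, GDF15 and PHLDA3 followed at 1.63, 1.41, 1.26 and 1.18. Receptor tyrosine kinases (28 tested, against 25 in MYC-ON) and imprinted genes (19 tested, against 16) had 5 larger ones each and no smaller one. Largest were RET among the kinases, and IGF2 (2.80) and the non-coding MEG3 (2.12) among the imprinted genes. IGF2 was at 63.9 ± 26 TPM in SKNAS MYC-OFF and 4.34 to 13.7 TPM in MYC-ON. The line gap of CDKN1A, TP53INP1, GDF15 and PHLDA3 was thus wider in MYC-ON, and that of IGF2, MEG3 and RET narrower.

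Of 23 Notch genes tested for the interaction 5 had smaller and 3 larger values, against 3.39% and 3.81% of all genes. JAG2, HES6 (-3.07), LFNG (-2.59), NRARP (-1.80) and HES4 (-1.06) were smaller, and NOTCH3 (1.38), HEY1 (1.12) and JAG1 (1.04) larger. Without the libraries below 3.3 there were 4 smaller and 1 larger. In the HOX list HOXA5 (-2.05), HOXA3 (-1.46) and HOXA2 (-1.12) were smaller. HOXA3 was at 112 ± 9.95 TPM in SHEP MYC-OFF and 24.1 to 60.7 TPM in MYC-ON. NES, the intermediate filament protein nestin of neural progenitors, had -2.77 ± 0.12, with 87.8 ± 17.9 TPM in SKNAS MYC-OFF, 113 to 281 TPM in SKNAS MYC-ON, and 5.23 ± 0.914 TPM and at most 1.87 TPM in SHEP. Among clock genes BHLHE40 (-1.82) and BHLHE41 (-1.36), E-box-binding repressors, were the ones called. BHLHE40 was at 99.9 ± 21.0 TPM in SHEP MYC-OFF and a median of 67.9 TPM in MYC-ON, and at 4.93 ± 1.73 TPM and 14.1 TPM in SKNAS. No cancer-testis antigen in the list had an interaction of 1 or more that was called. GAGE2A, at -0.79 (limma adjusted p = 1.33e-06), differed between the states by less than that threshold.

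**Figure D4:**
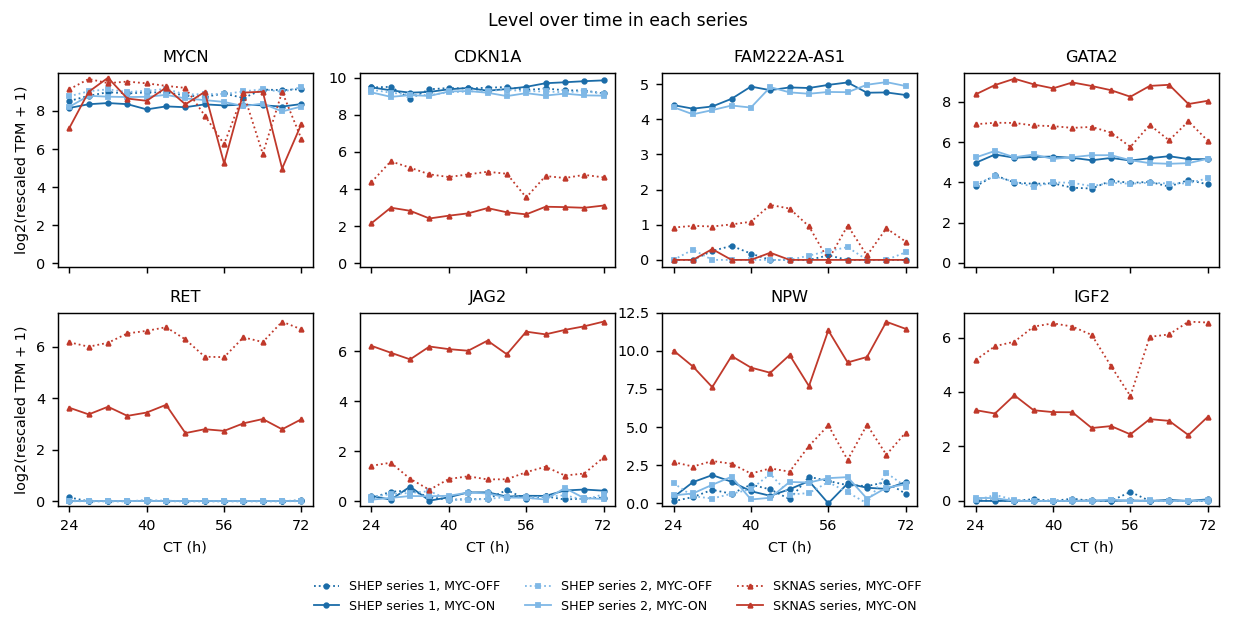
Level of 8 genes in log2(rescaled TPM + 1) against CT in hours, for the 2 SHEP series (blue, circles and squares) and the SKNAS series (red, triangles), with MYC-ON as solid and MYC-OFF as dotted lines. MYCN overlaps between the lines and dips in some SKNAS libraries, CDKN1A separates the lines in both states, FAM222A-AS1 is high in SHEP MYC-ON alone, and NPW and JAG2 are high in SKNAS MYC-ON alone.

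Most line differences were found at each time point. Of the calls, 3035 higher in SHEP and 2473 higher in SKNAS had the same direction at all 13 time points. A difference between the lines in linear change from CT24 to CT72 was called for 1257 genes (8.03%), 605 (3.86%) with a more positive change in SHEP and 652 (4.16%) with a more positive change in SKNAS. The count rested on SHEP series 2, since 566 genes were called without it. The 3 with the lowest p in each direction all had a line difference that held. EPHA8, an ephrin receptor, was at 1.67 to 13.7 TPM in SKNAS and at most 0.134 TPM in SHEP, and its change over the 48 h was 2.66 in SKNAS (difference -2.65 ± 0.14, limma adjusted p = 4.77e-16). The chemokine receptor ACKR3 was at 0.549 to 14.8 TPM in SHEP, with a change of -2.64, and listed at 0 in SKNAS MYC-ON, while SHEP MYC-OFF had 86.2 ± 18.1 TPM. RFLNB changed by -0.61 in SHEP and 0.80 in SKNAS, NFE2L3 by 1.37 and -0.69, LINC01164 by 2.17 in SHEP while listed at 0 in SKNAS, and TMEM108-AS1 by -0.02 and -2.34. The difference in slope of TMEM108-AS1 was not called without the libraries below 3.3 (0.95, limma adjusted p = 0.112), and as an antisense gene it cannot be told apart from the opposite strand here.

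A difference in 24 h rhythm between the lines was called for 0 of 15662 genes (0%) by the limma F test. An unadjusted p under 0.05 was found for 588 genes, 3.75% of those tested, and the lowest adjusted p was 0.24. No such difference was thus detected with 13 time points from 1 SKNAS series.

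Line differences were unevenly spread over chromosomes. On chromosome 13, 38.3% of genes tested were higher in SHEP and 5.53% in SKNAS, with a median difference of 0.68 that was 0.66 without the 9 libraries and 0.70 in MYC-OFF. Chromosomes 4 and 22 followed, with 33.5% and 30.0% higher in SHEP. The highest shares on the SKNAS side were on chromosomes 17 (26.1%), 1 (24.2%) and 16 (23.6%). The medians of chromosomes 17, 1 and 16 were -0.21, -0.16 and -0.20, and without the 9 libraries -0.10, -0.20 and -0.05. The copy number of the lines was not measured here.

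**Figure D5:**
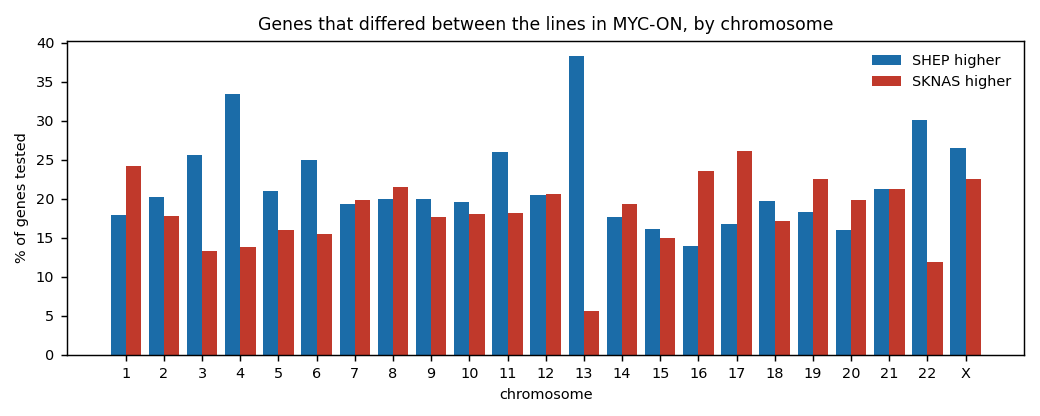
Share of genes tested that were higher in SHEP (blue) or in SKNAS (red) in MYC-ON, in percent, for each chromosome. Chromosome 13 has the widest gap, 38.3% against 5.53%, followed by chromosomes 4 and 22, while chromosomes 1, 16, 17 and 19 are among those with more genes higher in SKNAS than in SHEP.

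In runs of 25 neighbouring tested genes, the highest median lay on chromosome 19 (52388836 to 53254898, ZNF528-AS1 to ZNF677), where 22 genes were higher in SHEP, none in SKNAS, and the median was 2.39. In this run 20 of the 25 genes are named as zinc finger genes, mostly transcriptional repressors of the KRAB type. The next were the regions of the HOXB cluster on chromosome 17 (48048329 to 49056145, with 12 HOX genes in the run, median 2.24) and of the HOXA cluster on chromosome 7 (24698355 to 28825894, with 9, median 1.86), and a stretch across the centromere of chromosome 1 (117863485 to 143905977, median 1.62). All had a like median in MYC-OFF, at 2.52, 2.46, 1.73 and 1.25. The runs furthest to the SKNAS side were at the end of the short arm of chromosome 1 (1275223 to 1635263, LINC01786 to MMP23B, median -1.70) and near the end of the long arm of X (153444473 to 154330350, TREX2 to TKTL1, median -1.66, and 154411524 to 155071136, TAZ to BX470111.1, median -1.57), and on the long arm of chromosome 1 (151759647 to 153780157, MRPL9 to SLC27A3, median -1.49). Without the 9 libraries these medians were -1.26, -1.11, -1.07 and -0.74.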

How the data were processed

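RNA of cultured SHEP and SKNAS cells had been sequenced as polyadenylated, paired-end libraries. The authors quantified reads with Salmon 1.3.0 on GRCh38 and deposited TPM, 1 value per gene and library for 60237 genes, each library summing to 1000000. TPM keep no depth and no counting error, and a rise of some genes is balanced by a fall of others.

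The design fixed 78 libraries of CT24 to CT72, grouped by line and state. TPM were rescaled by median-of-ratios factors, and log2(TPM + 1) was fitted with limma 3.58.1 in R 4.3.3 (trended eBayes) with CT as a factor and, for the interaction, line, state and their product over both states. The filter kept genes that averaged 1 TPM or more in either line, or for the interaction in any of the 4 groups. In each comparison p-values were adjusted by Benjamini-Hochberg over all genes kept. The log scale understates changes of low genes. Scripts were tested on simulated data. Replicates are time points within series. The 2 SHEP series are biological replicate experiments by the design text, and SKNAS had 1 among the libraries used. The study made a second SKNAS series, which was not used here. No source used here says whether the time points of a series were separate cultures.

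Genes named were the 10 per direction with the largest called difference, no overlap and a mean of at least 10 TPM, 5 per direction for the interaction, 3 per direction for the slope, and the leading members of each list. List members beyond these were chosen after their values were seen. The libraries, the 34 lists and the tests were chosen with earlier results of these data known, and no list has a test of its own. For the 961 repeated symbols the most abundant entry was named. The length trend and the library weights by line were alternatives chosen after seeing the data. Some members of the lists are counted but not reported here by name. Coordinates are from Gencode 44, promoters from RefSeq.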

Additional observations from a re-analysis of the deposited data

Results flagged for a closer look

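These 16 results were singled out since a test of the difference between the lines' effects passed, for the N-MYC state or for the change over time. For the state, the line difference (SHEP minus SKNAS, log2) was larger in MYC-ON for FAM222A-AS1 by 5.44, CRH by 3.42, RET by 3.10, GAS7 by 2.98 and TRIM54 by 2.82. It was smaller for NPW, GAGE2E, JAG2, RNA5-8SN2 and AMN, with interactions of -6.29, -5.89, -5.22, -4.89 and -4.78. Limma adjusted p were at most 0.00342. GAGE2E was listed at 0 in the median library of both lines in MYC-ON and reached 918 TPM in another of SHEP, and RNA5-8SN2 spanned 0 to 1749.8 TPM in SKNAS MYC-ON.

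For the change from CT24 to CT72 (SHEP minus SKNAS, log2), the difference was 2.05 for NFE2L3, 2.17 for LINC01164, 2.33 for TMEM108-AS1, -2.65 for EPHA8, -1.41 for RFLNB and -2.64 for ACKR3. Limma adjusted p were at most 9.34e-09. TMEM108-AS1 was at 0.111 to 5.17 TPM in SKNAS and at most 0.0358 TPM in SHEP.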

How the results depend on the processing

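Of the counts of called genes, 70 stayed within 1.5 times of the values given and 19 moved further. The MYC-ON count higher in SKNAS was 3018 and became 1840 on TPM as deposited, 1863 with the library median as covariate, 1953 without libraries below 3.3 and 1866 without those below 3.8. The MYC-OFF count became 8388 at a threshold of 0.66. The larger interactions became 1025 on TPM as deposited, 1102 with a pseudocount of 0.25 and 1510 at 0.66, and the smaller ones 362 on TPM as deposited and 1461 at 0.66. The SHEP series differed in 140 genes with the pseudocount of 0.25 and 200 at 0.66. The slope count became 2313 at 0.66 and lay between 566 and 1305 with 1 SHEP series left out. Rhythm calls numbered 1 on TPM as deposited, 2 with the covariate, 3 with no filter on low values and 2 with the length trend removed. They numbered 4342 without libraries below 3.3, where 4 SKNAS libraries carry 4 SKNAS terms and leave SKNAS no residual of its own. Leaving out either SHEP series gave 3216 to 3387 genes higher in SHEP, 2955 to 3120 higher in SKNAS, 5441 to 5704 in MYC-OFF, 609 to 659 larger and 523 to 596 smaller interactions and 0 rhythms.

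With the replicate block, which pairs SHEP series over the states, 632 interactions were larger and 561 smaller, and no call count moved by over 1.5 times. Deviations of the SHEP series correlated at 0.49 across genes between the states. Series means as replicates gave 3239 and 2991 line calls, with 1 residual degree of freedom and the lone SKNAS mean assumed to vary like the others. Of the named genes, 258 results kept their call and 4 did not. GAGE2E was at -6.20 (limma adjusted p = 0.0621) and RNA5-8SN2 at -5.63 (limma adjusted p = 0.104) without libraries below 3.3, RNA5-8SN2 at -4.01 (limma adjusted p = 0.0544) without SHEP series 2, and the slope of TMEM108-AS1 at 0.95 (limma adjusted p = 0.112) without libraries below 3.3. None reversed. The cause of these moves was not tested. Of 34 list medians 26 moved on TPM as deposited, 17 with the covariate and 15 without libraries below 3.3. With a mean of at least 5 TPM no endothelial marker was left to test.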

Other observations

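S-phase and G2M genes were called higher in SKNAS alone, where 19.3% of all genes were called and 7.29% held. In both lists the calls that held were near that 7.29%. Of 36 S-phase genes 10 were higher there and none in SHEP (3 held), led by EXO1 (-1.99), a repair exonuclease, and RFC4 (-1.85), which loads the replication clamp. Of 36 G2M genes 10 were higher in SKNAS (2 held), led by AURKB (-1.91) and UBE2C (-1.68), which act in mitosis. The medians of -0.47 and -0.60 were 0.01 and -0.13 on TPM as deposited. Of 22 G1 regulators 3 were higher in SHEP and 6 in SKNAS (1 and 4 held), with a median of -0.12. CCND1 was at 193 to 368 TPM in SKNAS and 65.6 to 116 TPM in SHEP.

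Of 32 TGF-beta and BMP genes 13 were higher in SHEP and 3 in SKNAS (9 and 2 held). The ligands TGFB2 (5.65) and INHBA (5.25) led in SHEP, and the inhibitor SMAD6 (-3.41) and the ligand GDF6 (-1.77) in SKNAS. Their median of 0.88 was 0.29 without the 9 libraries and took the opposite sign without those under 3.8 (-0.08). Of 20 glucocorticoid genes, which matter here since dexamethasone was given to all cells, 8 were higher in SHEP and 3 in SKNAS (7 and 1 held). The receptor NR3C1 (0.82) and its targets FKBP5 (0.09) and TSC22D3 (0.96) were not called, while ANGPTL4 (2.95) was higher in SHEP. HSD11B2 (-2.68) and HSD11B1 (-1.04), which inactivate and regenerate cortisol, were higher in SKNAS.

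In metabolism, 10 of 27 amino acid transporters were higher in SHEP and 1, SLC6A15 (-1.31), in SKNAS (7 and 0 held). SLC6A6 (3.15), the taurine transporter, and SLC7A11 (2.91), the cystine antiporter, led. SLC7A11 was at 16.9 to 51.9 TPM against 1.21 to 4.93 TPM. Of 24 serine and one-carbon genes 5 were higher in each line (3 and 3 held), near the 21% and 19.3% of all genes. ALDH1L2 (3.29) and MAT1A (3.23) led in SHEP, and AMT (-4.19) and CBS (-2.23) in SKNAS. Of 26 glycolysis and lactate genes 4 and 2 were called (3 and 2 held), led by the lactate exporter SLC16A3 (4.23) in SHEP and the brain aldolase ALDOC (-4.24) in SKNAS. Of 13 mitochondrially encoded genes 4 were higher in SHEP (1 held), with MT-ATP8 (2.04) and MT-ND4L (1.87) highest, and the median of 0.81 was 0.30 without the 9 libraries.

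Among genes of antigen presentation 6 of 21 were higher in SHEP and 3 in SKNAS (4 and 0 held). ERAP2 (4.00), CD274 (2.00), ERAP1 (1.41), TAPBP (1.36), HLA-C (1.31) and CANX (1.07) were higher in SHEP, and PSMB10 (-1.70), HLA-B (-1.59) and PSMB9 (-1.33) in SKNAS. HLA-B was at 82.1 to 467 TPM in SKNAS and 39.3 to 149 TPM in SHEP, and its difference was -0.93 without the 9 libraries. HLA-E, HLA-F, B2M, MICA, MICB, NLRC5, TAP1, TAP2, PSMB8, PDIA3 and CALR, between -0.75 and 0.76, were not called. HLA genes are polymorphic and alike, so their levels are uncertain. Of 32 interferon-stimulated genes 6 and 7 were called (2 and 3 held), near the 21% and 19.3% of all genes, with IFITM2 (2.11) and IRF1 (1.80) highest in SHEP and IFI44 (-4.22) and IRF9 (-1.87) in SKNAS. Of 13 BCL2 family genes 6 and 2 were called (4 and 0 held), with BBC3 (2.17) and BCL2L1 (2.14) in SHEP and BAD (-1.63) and BOK (-1.39) in SKNAS.

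Of 8 neural crest genes tested, 4 and 3 were called and held, with PAX3 (2.18) and TFAP2A (2.02) in SHEP and NES (-6.59) and L1CAM (-3.23) in SKNAS. Of 16 imprinted genes 3 and 5 were called (2 and 4 held), with DIRAS3 (3.31) and PLAGL1 (1.89) in SHEP. PEG10 (-4.03) was higher in SKNAS, where NDN was at 13.8 to 45.0 TPM while listed at 0 in SHEP.

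Of the markers of other cell types, those of endothelium were low in both lines and those of blood were low in SHEP. Some of blood in SKNAS and some of epithelium were not low. Of 10 endothelial markers 1 was tested, and their summed level was 2.54 to 6.36 TPM in SHEP and 0.472 to 3.43 TPM in SKNAS. Of 12 haematopoietic markers 3 were tested, with 1 higher in SHEP (0 held) and 2 in SKNAS (2 held). Their sums were 1.46 to 6.82 TPM in SHEP and 21.5 to 71.8 TPM in SKNAS. These sums came from PTPRC (CD45), at 7.29 to 48.3 TPM in SKNAS, and HBA1, at 1.94 to 62.8 TPM in SKNAS MYC-ON and 0.0279 ± 0.101 TPM in SKNAS MYC-OFF. Of 13 epithelial markers 7 were tested, with 4 higher in SHEP (4 held) and 2 in SKNAS (0 held). The summed epithelial level was 1176 to 2122 TPM in SHEP and 283 to 813 TPM in SKNAS, nearly all of it from the keratins KRT8, at 427 to 916 TPM and 99.0 to 295 TPM, and KRT18, at 656 to 1157 TPM and 170 to 498 TPM. OCLN (3.26) and KRT8 (1.96) were called in SHEP, and KRT19 (-1.49) and CLDN3 (-1.22) in SKNAS. EPCAM (-0.85) was not called.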
